A study of Mus musculus with 12 samples.

Results

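The comparison described here sets mouse intestinal epithelial cells of the Sox9 Negative sort gate against those of the Sox9 Low gate. It uses 6 of the 12 libraries of the series, 3 Low and 3 Negative, chosen by their labels, and all genes with a deposited value of at least 10 in at least 3 of the 12 libraries, which were 16577 of the 30265 genes in the table. The series measured RNA of epithelial cells from C57Bl/6 mice carrying a Sox9-GFP reporter, sorted by reporter level into 4 populations (High, Low, Sublow and Negative), each with replicates A, B and C. Per the labels, each library was made from 12000 cells, from total RNA after depletion of ribosomal RNA, with a SMARTer total RNA kit and single-end sequencing. All 6 libraries thus shared strain, tissue and reporter, and the populations differed by the sort gate alone as far as the labels state. The labels give neither age nor sex, neither the region of intestine nor the construct of the reporter. They also do not state whether the replicates are different mice, so that the p-values speak only to the spread among these libraries, which may be technical.

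The intestinal epithelium is renewed from stem cells at the base of the crypts, whose daughters divide for a short time, stop dividing and differentiate as they move onto the villus. Wnt and Notch signals and the factor Sox9 mark the crypt, and most differentiated cells are absorptive enterocytes, which carry digestive enzymes and transporters on a brush border of microvilli and pack dietary fat into lipoproteins. Earlier publications on such reporter mice place cycling stem cells in the Low gate and differentiated cells, mainly enterocytes, in the Negative gate. The comparison therefore addresses which genes separate the stem cell gate from the differentiated gate.

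Values are normalised read counts, given for replicates A, B and C in that order. Differences are Negative minus Low on the log2(value + 1) scale with a standard error and an adjusted p from limma, and a gene is said to rise or fall only where its adjusted p was below 0.05. Sox9, on which the gates were set and which is therefore no finding, measured 7654, 5945 and 6204 in Low and 703, 383 and 725 in Negative. The 3 Negative libraries all lay below the 3 Low libraries (log2 difference -3.50 ± 0.30, adjusted p = 4.8e-06, 11.3-fold). The epithelial adhesion gene Epcam measured 13725, 14486 and 14988 in Low and 23137, 28985 and 25076 in Negative, so both gates held epithelial transcripts at a high level. Its call (log2 difference 0.83 ± 0.14, adjusted p = 0.000269) was lost when libraries were scaled to the same total or to the same quantiles.

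The 6 libraries held 11.6 M to 16.5 M reads assigned to genes (M, 1e6), and a floor of 3 counts corresponds to 2.38 to 4.61 normalised units. The authors' size factors left the libraries with unequal normalised totals, 12.3 M to 13.2 M in Low and 17.4 M to 20.6 M in Negative. In Negative, the 100 largest genes held 26.7% to 30.4% of the reads and the mitochondrial genome 4.19% to 5.08%, against 19.5% to 21.5% and 2.53% to 3.31% in Low. Correlations of log2 values were 0.970 to 0.974 within Low, 0.964 to 0.971 within Negative and 0.806 to 0.885 between them. On the 1st principal component of the 6 libraries, which held 78.9% of the variance, Low lay between -109.3 and -87.9 and Negative between 78.3 and 127.7.

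Of 16577 genes tested, 4446 (26.8%) rose and 5028 (30.3%) fell from Low to Negative, so that 57.2% of all genes differed. Changes of at least 2-fold were called for 2550 genes (15.4%) that rose and 3580 (21.6%) that fell, and changes of at least 32-fold for 44 and 113. The libraries of both gates did not overlap in 5228 genes (31.5%) that were higher and 5801 (35.0%) that were lower in Negative, 66.5% of all genes. The median log2 difference over all genes was -0.05. Scaling every library to the same total moved that median by -0.55, to -0.60, and changed the split from 4446 and 5028 to 2441 genes (14.7%) that rose and 8050 (48.6%) that fell. The share of called genes that rose was 46.9% with the deposited scaling and 23.3% with the same total, and 595 called genes changed sign. Each call was repeated under 20 alternative settings of scaling, filter, tool and libraries, and a call said to be lost in a number of them was not made in that many. Members of lists are named here with their values known. A difference given as without a library is the log2 difference when that library was left out, shown where it moved the value by more than 1.5-fold. Small differences near 0.55 on the log2 scale therefore depended on which scaling was used, and they are marked as such below. In bulk libraries, fewer cells of a type and less RNA per cell cannot be told apart, and this holds for every level given here.

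**Figure D1:**
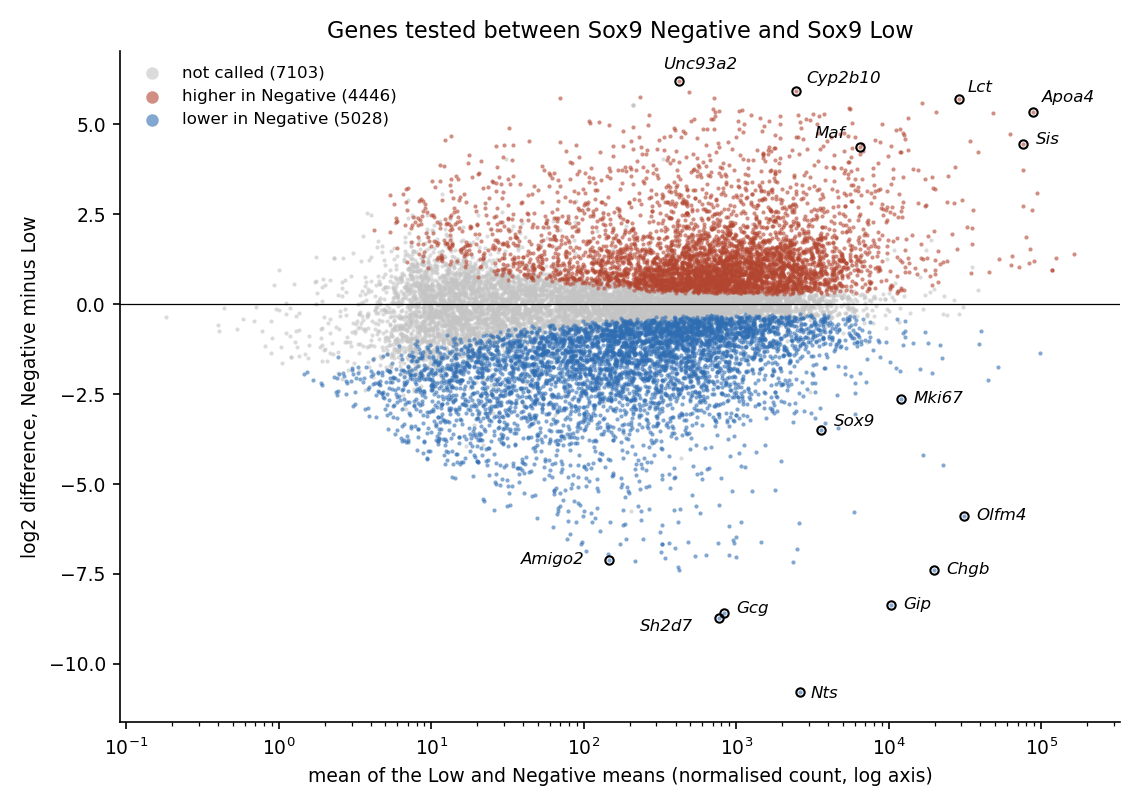
Log2 difference of Negative minus Low (vertical axis, log2(value + 1) scale) against the mean of the Low and Negative means (horizontal axis, normalised count, log scale) for the 16577 genes tested. Red points rose (4446), blue points fell (5028) and grey points were not called (7103). Falls reach further than rises: Nts and Sh2d7 lie lowest, and Unc93a2 and Cyp2b10 lie highest. Circled points are the genes named in the plot.

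**Figure D2:**
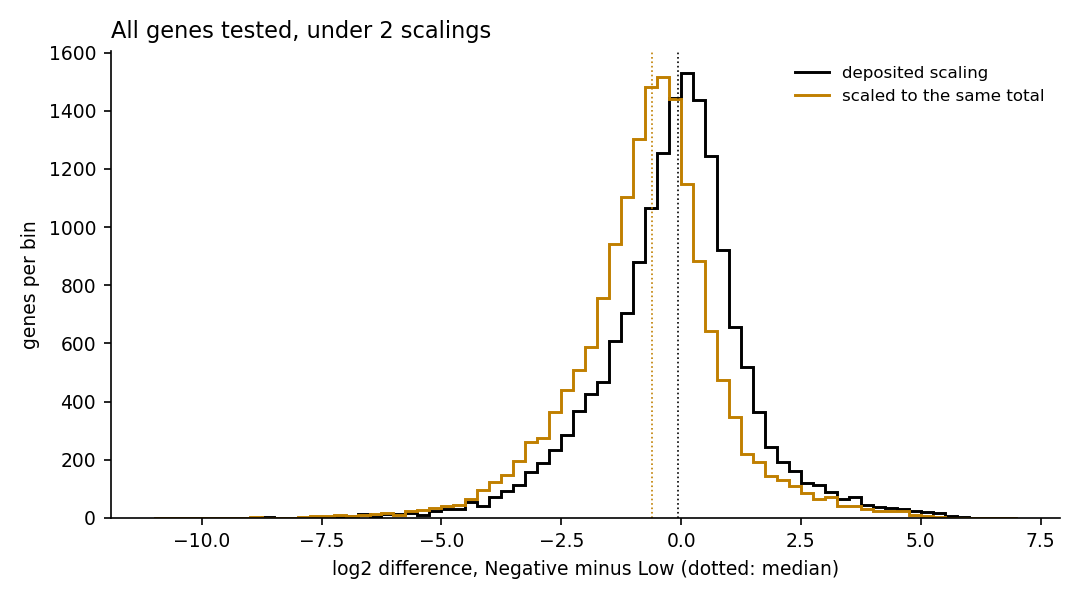
Number of genes (vertical axis) by log2 difference of Negative minus Low (horizontal axis) with the deposited scaling and after scaling each library to the same total. Dotted lines mark the medians, -0.05 and -0.60. The whole distribution moves by about the same amount and keeps its shape.

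By the rule for named genes, the 15 largest rises were those of Unc93a2, Cyp2b10, Slc2a7, Slc5a4a, Lct, Fabp1, Slc2a2, Reg3a, Ggt1, Slc5a11, Bst1, Ace, Slc13a2, Apoa4 and Apoa1, with log2 differences between 6.20 and 5.31. Among them are sugar transporters (Slc2a7, Slc2a2 and Slc5a4a), the lactase gene Lct, the apolipoproteins Apoa1 and Apoa4 and the dicarboxylate transporter Slc13a2. Unc93a2, whose function is not well known, measured 7.63, 18.8 and 7.13 in Low and 626, 1052 and 834 in Negative (log2 difference 6.20 ± 0.74, adjusted p = 2.92e-05, 73.5-fold). Cyp2b10, a cytochrome P450 that oxidises foreign compounds, measured 40.3, 196 and 54.7 in Low and 3656, 6702 and 4112 in Negative (log2 difference 5.92 ± 0.80, adjusted p = 6.4e-05). In both genes Low B lay above Low A and Low C, and every Negative library lay far above all of them. Cyp2b10 was at 6.60 without Low B.

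Brush border hydrolases, the membrane enzymes that finish the digestion of sugars and peptides, rose almost without exception: 19 of 20 members tested rose and 0 fell, with a median log2 difference of 4.72 against -0.05 over all genes, of which 26.8% rose. Sis, the sucrase-isomaltase that splits sucrose and starch fragments, measured 4679, 10405 and 5873 in Low and 107550, 164380 and 166460 in Negative (log2 difference 4.44 ± 0.44, adjusted p = 1.01e-05, 21.8-fold). Lct, which splits lactose, measured 771, 2349.9 and 636 in Low and 46738, 74132 and 48196 in Negative (log2 difference 5.71 ± 0.79, adjusted p = 7.59e-05, 52.5-fold). The lowest Negative library of either gene was over 10-fold above the highest Low library. Anpep, an aminopeptidase, rose by 4.73 ± 0.53, Ace, a peptidase known for its part in angiotensin processing, by 5.36 ± 0.71 and Dpp4, a dipeptidyl peptidase, by 2.69 ± 0.29. Naalad2, a carboxypeptidase, was the member not called (4.36, 4.28 and 42.0 in Low and 22.2, 6.15 and 13.7 in Negative, adjusted p = 0.731). Summed over the list, the hydrolases measured 34839, 61606 and 35128 in Low and 551880, 834740 and 711320 in Negative. Low B, with 61606, held the highest sum of the Low libraries, and 19 members rose in each of the 6 fits that left out 1 library.

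Transport of sugars and amino acids showed a split. In that list 17 of 21 members rose and 3 fell (median 3.45). Slc5a1, the sodium-coupled glucose carrier of the brush border, measured 2934, 5632 and 3294 in Low and 52655, 87931 and 79546 in Negative (log2 difference 4.24 ± 0.46, adjusted p = 1.63e-05). Slc2a2, which moves glucose and fructose out of the cell towards the blood, measured 169.9, 532 and 149.8 in Low and 7934, 13959 and 10380 in Negative (log2 difference 5.45 ± 0.75, adjusted p = 7.37e-05, 43.8-fold). Both genes were well separated between the gates, with Low B again the highest of the Low libraries. The dipeptide carrier Slc15a1 rose by 4.14 ± 0.50 and Slc3a1, a subunit of the carrier of cystine and basic amino acids, by 3.13 ± 0.33. The 3 members that fell were Slc7a5, Slc1a5 and Slc38a1, which are known for supplying amino acids to growing cells and were picked out here after their values were seen. Slc7a5, the light chain of the large neutral amino acid exchanger, measured 491, 450.5 and 441 in Low and 61.2, 49.2 and 55.9 in Negative (log2 difference -3.04 ± 0.20, adjusted p = 1.15e-06), and its spread within a gate was small. The glutamine carrier Slc1a5 fell by 2.80 ± 0.31 on the log2 scale.

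**Figure D3:**
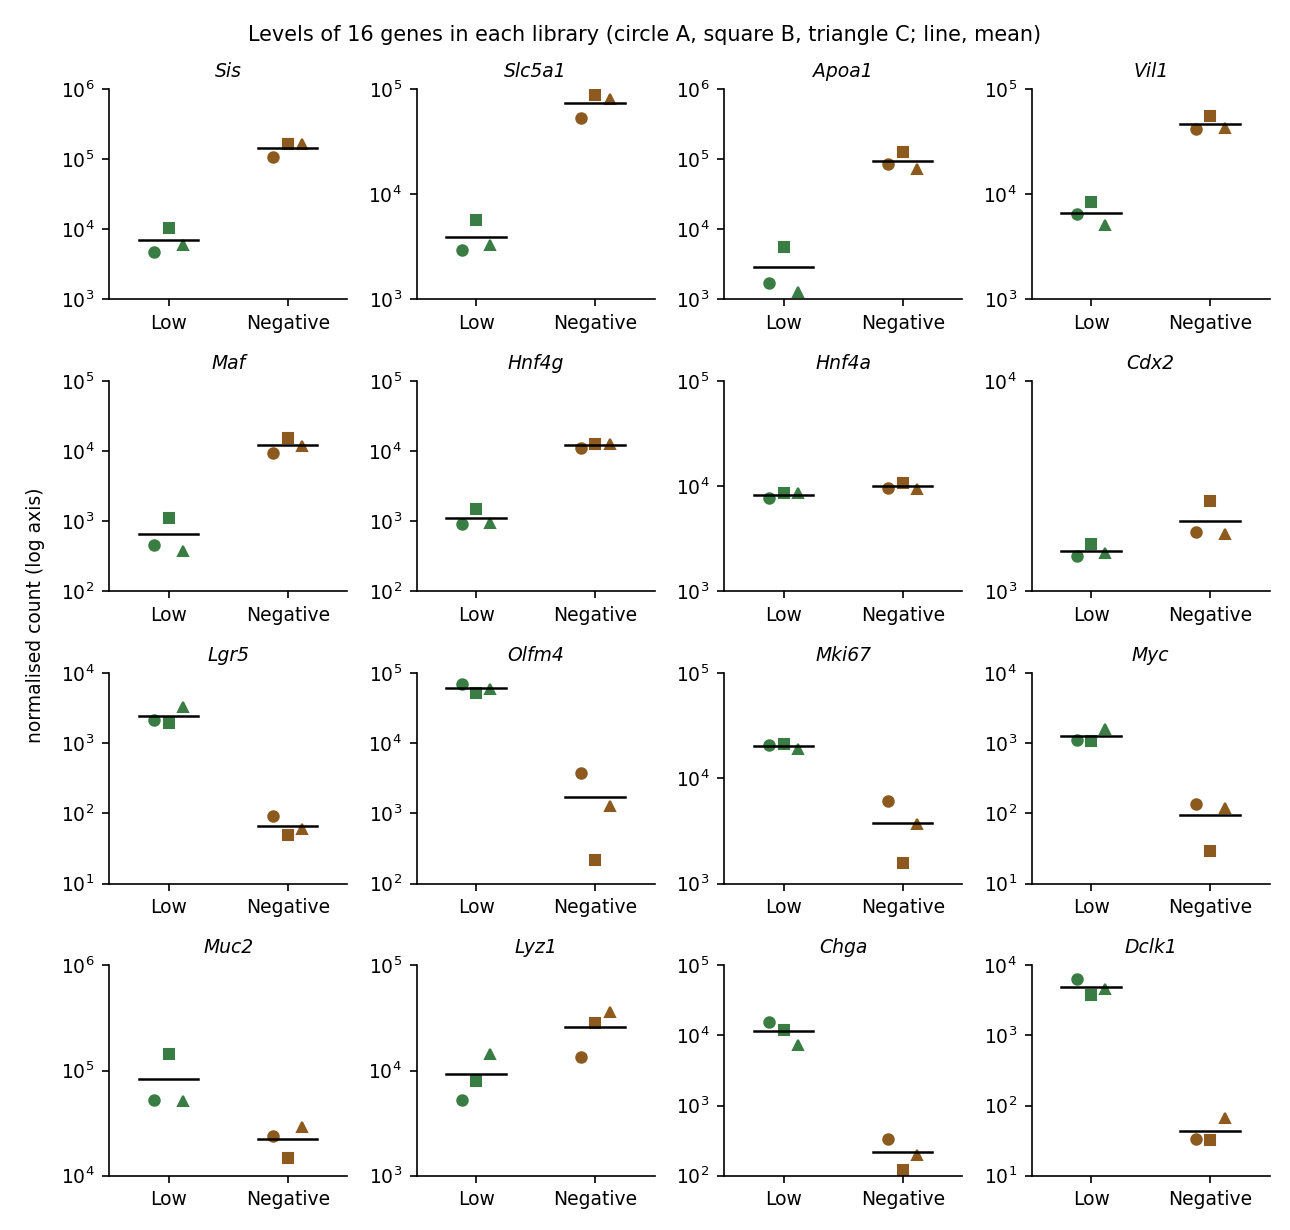
Normalised read counts (vertical axes, log scale) of 16 genes in the 3 Low and 3 Negative libraries. Circles are replicate A, squares B and triangles C, and the line is the mean of the 3. Sis, Slc5a1, Apoa1 and Maf sit far higher in Negative, Lgr5, Olfm4, Chga and Dclk1 far lower, and the gates lie close together for Hnf4a and Cdx2.

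The genes that take up fat and assemble chylomicrons rose together. Of 26 members, 24 rose and 1 fell, with a median of 3.73. Apoa1, a main protein of high density lipoprotein, measured 1693, 5548 and 1286 in Low and 85007, 124640 and 71447 in Negative (log2 difference 5.31 ± 0.70, adjusted p = 5.57e-05). Fabp1, which binds fatty acids in the cytosol, measured 390.0, 1512 and 466 in Low and 26011, 43385 and 27664 in Negative (log2 difference 5.60 ± 0.63, adjusted p = 1.98e-05, 48.3-fold). In both genes Low B was at least 3-fold above the other Low libraries and Negative B was the highest of all. Mttp, which loads lipid onto apolipoprotein B, rose by 4.53 ± 0.48, Apob itself by 3.74 ± 0.48 and the sterol transporter Npc1l1 by 4.11 ± 0.45. Apoa4, another apolipoprotein of chylomicrons, measured 3226, 10675 and 1774 in Low and 161650, 259330 and 95232 in Negative (log2 difference 5.33 ± 0.95, adjusted p = 0.000461). Acsl3, an acyl-CoA synthetase, was the member that fell (-1.93 ± 0.25), and Scarb1, a lipoprotein receptor, was not called (-0.55, adjusted p = 0.0787). Apoa1 was at 5.95 without Low B, and Fabp1 was at 6.20 without Low B. Apoa4 was at 6.05 without Low B.

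Promoter sequences of 4 of these genes are shown because they hold motifs of factors known to act in enterocytes. They are the 120 bases before the annotated start from RefSeq on GRCm38.p6, with matches to the HNF4 motif CAAAGTCCA (Treh, Alpi and Slc3a1) or the CDX motif TTTATNG (Fabp1) in capitals, on either strand. Capitals mark only the motif named for each gene, and matches to the CDX motif in the Alpi and Slc3a1 promoters are left in lower case. Treh, a trehalase, lies at chr9:44673113-44673232 on the plus strand, Alpi, the intestinal alkaline phosphatase, at chr1:87101607-87101726 on the minus strand, Slc3a1 at chr17:85028227-85028346 on the plus strand and Fabp1 at chr6:71199759-71199878 on the plus strand.
Treh: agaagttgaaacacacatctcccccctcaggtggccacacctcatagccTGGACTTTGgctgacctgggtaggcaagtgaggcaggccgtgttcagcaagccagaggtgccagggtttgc
Alpi: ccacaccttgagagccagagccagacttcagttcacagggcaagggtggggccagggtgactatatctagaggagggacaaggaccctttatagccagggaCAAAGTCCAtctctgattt
Slc3a1: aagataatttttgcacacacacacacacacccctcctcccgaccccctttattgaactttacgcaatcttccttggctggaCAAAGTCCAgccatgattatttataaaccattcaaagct
Fabp1: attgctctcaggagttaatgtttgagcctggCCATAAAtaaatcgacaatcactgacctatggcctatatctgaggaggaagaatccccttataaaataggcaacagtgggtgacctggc
Treh rose by 5.15 ± 0.81 and Alpi by 4.71 ± 0.69. The HNF4 motif lay in 5.36% of 56 promoters of the 3 absorptive lists above (3 genes) and in 2.37% of those of genes that rose at least 4-fold, against 0.474% of the 11804 protein-coding genes tested that have an entry. The CDX motif lay in 23.2% of the 56 (13 genes) against 7.43%, and in 6 of the 13 genes its match overlapped one to the TATA box TATAAA, which lay in 23.2% against 8.23%. These windows run from 250 bases before to 50 after the start, both strands were searched, and the median GC content was 54.8% in the 56 promoters and 60.0% in all. A match describes letters in this window and is not evidence of binding. Alpi was at 5.36 without Low B.

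The scaffold of the microvilli also rose. In the list of brush border cytoskeleton genes 17 of 19 members rose and 2 fell (median 1.79). Vil1, the actin-bundling villin, measured 6484, 8398 and 5120 in Low and 42012, 55526 and 42619 in Negative (log2 difference 2.83 ± 0.32, adjusted p = 2.12e-05, 7.09-fold), and the gates were clearly apart although villin was plentiful in Low. The bundling protein Pls1 rose by 3.52 ± 0.38 and the actin nucleator Cobl by 3.33 ± 0.36. The members that fell were Fmnl1, a formin (-2.17 ± 0.53), and Twf2, an actin-binding protein (-1.07 ± 0.26, a call lost under quantile scaling).

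Genes of the upper and lower villus also moved, with exceptions. Of 20 genes placed at the villus tip or in purine salvage, 15 rose and 2 fell (median 1.84), or 12 and 3 with the same total. Among them Xdh, which makes uric acid from purines, rose by 4.23 ± 0.64 and the keratin Krt20 by 3.20 ± 0.36, while Nt5e, an ectoenzyme that makes adenosine, fell (-1.47 ± 0.37) and so did the growth factor receptor Egfr (-1.01 ± 0.15). Of 14 antimicrobial genes, 10 rose and 0 fell (median 2.05). Reg3b, a lectin that acts on bacteria, measured 2023, 1740.2 and 2211 in Low and 23217, 21073 and 24602 in Negative (log2 difference 3.53 ± 0.17, adjusted p = 3.88e-07, 11.6-fold). Reg3a measured 17.4, 52.2 and 30.1 in Low and 1093, 1662 and 1356 in Negative (log2 difference 5.43 ± 0.58, adjusted p = 1.47e-05). The 3 libraries of a gate lay close together for Reg3b, and neither gene overlapped between the gates. Il18, an inflammatory cytokine of the epithelium, rose by 4.86 ± 0.45 and the polymeric immunoglobulin receptor Pigr by 1.55 ± 0.25, a call lost under quantile scaling.

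Most genes of bile acid, retinoid and electrolyte handling rose. All called members of the ileal bile acid list rose (8 of 9, median 2.51), with Slc51b, a subunit of the basolateral bile acid carrier, at 4.48 ± 0.34 and Fgf15, the hormone by which the ileum signals bile acid load to the liver, at 3.60 ± 0.43. Slc10a2, the apical bile acid carrier, was not called (1.65, adjusted p = 0.0708). Of 12 retinoid genes 8 rose (median 1.21), led by Rbp2, which carries retinol inside the enterocyte (5.19 ± 0.66). In the electrolyte list 17 of 24 rose and 6 fell, or 14 and 7 with the same total. Slc9a3, the sodium-proton exchanger of the brush border, rose by 5.24 ± 0.83 and the anion exchanger Slc26a6 by 4.74 ± 0.63. Slc12a2, the basolateral chloride loader, measured 47018, 38602 and 43152 in Low and 4106, 724 and 2467 in Negative (log2 difference -4.46 ± 0.53, adjusted p = 2.9e-05), and Kcnq1, a potassium channel, fell by 2.72 ± 0.29 on the log2 scale. Cftr, the apical chloride channel, had a small fall (-0.59, adjusted p = 0.0435) that 6 of 20 alternatives did not call. Of 16 metal-handling genes 12 rose and 1 fell. They included Slc46a1, a folate and heme carrier (4.78 ± 0.73), and the ferritin heavy chain Fth1 (2.90 ± 0.31), and the member that fell was the transferrin receptor Tfrc (-0.87), whose call was lost without Low C or without Negative B. Slc9a3 was at 5.92 without Low B and 4.47 without Low C, and Slc26a6 was at 5.34 without Low B. Slc12a2 was at -3.75 without Negative B.

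Genes of energy metabolism rose. Of 80 nuclear-encoded subunits of oxidative phosphorylation 75 rose and 0 fell (median 1.24), and with the same total 59 rose and 2 fell. Cox7a1, a subunit of cytochrome oxidase known from muscle, rose by 4.65 ± 0.49 and Sdhb, a subunit of succinate dehydrogenase, by 2.04 ± 0.14. All 13 protein-coding genes of the mitochondrial genome rose (median 1.14), but quantile scaling left 1 of the 13 called. mt-Co1, a cytochrome oxidase subunit, measured 83046, 88811 and 97854 in Low and 214030, 295490 and 211180 in Negative, so the Negative libraries lay above the Low libraries without overlap. Fatty acid oxidation had 24 of 28 members higher and 2 lower, or 19 and 3 with the same total. The members that fell included the thioesterase Acot1 (-2.76 ± 0.35). Of 27 peroxisomal and lysosomal genes 21 rose and 1 fell, or 14 and 3 with the same total, and the member that fell was Gusb (-0.57, call lost in 3), a lysosomal glucuronidase.

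In sugar metabolism most genes rose and a few isoenzymes fell. Of 26 genes of glycolysis and gluconeogenesis 19 rose and 4 fell (median 1.89). Khk, which phosphorylates fructose, rose by 3.79 ± 0.36. The gluconeogenic genes G6pc and Pck1, whose products release glucose and make phosphoenolpyruvate in the cytosol, rose by 5.09 ± 0.72 and 4.05 ± 0.49. In the other direction, the hexokinases Hk2 (-2.97 ± 0.30) and Hk1 (-2.63 ± 0.24) and the mitochondrial Pck2 (-2.59 ± 0.34) fell. The lactate dehydrogenase subunit Ldhb was the other member that fell (-2.17 ± 0.55). Cholesterol synthesis moved little: 6 of 22 members rose (27.3%, near the 26.8% of all genes) and 0 fell (median 0.18). With the same total 2 rose and 9 fell (median -0.38). G6pc was at 5.74 without Low B.

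Nucleotide and one-carbon synthesis went the opposite way. Of 27 members 23 fell and 2 rose (median -2.03), against 30.3% of all genes that fell. Ppat, the first enzyme of purine synthesis, fell by 3.85 ± 0.48 on the log2 scale, and Cad, which starts pyrimidine synthesis, fell by 3.59 ± 0.72. The members that rose included Adss, an enzyme of adenylate synthesis, by 0.32, a call lost in 9 of 20 alternatives. Cad was at -2.62 without Negative B.

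Enzymes that modify drugs and other foreign compounds rose in large numbers. Of 44 cytochrome P450 genes tested 27 rose and 3 fell (median 2.21), or 25 and 8 with the same total. Cyp3a11, a main drug-oxidising enzyme of liver and gut, measured 83.9, 258 and 93.5 in Low and 2811, 4986 and 2558 in Negative (log2 difference 4.69 ± 0.71, adjusted p = 0.000139). Gsta1, a glutathione transferase, measured 173, 1025 and 193 in Low and 8897, 14249 and 9995 in Negative (log2 difference 5.05 ± 0.73, adjusted p = 0.000102). Both separated the gates by more than the spread of either, with Low B highest in Low. The P450 genes that fell were Cyp2j5 (-3.91), Cyp2e1 (-1.52) and Cyp4f17 (-1.06, call lost in 7). Phase II conjugation enzymes had 49 of 62 members higher and 6 lower (median 1.94), or 38 and 9 with the same total. Reads of near-identical members of these families, and of the Ugt1a genes that share exons, may have been split between them in counting. Gsta1 was at 5.88 without Low B.

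The solute carriers and ABC transporters as whole families were mixed. Of 316 solute carriers 144 rose (45.6%) and 72 fell (22.8%), with a median of 0.45, against 26.8% and 30.3% of all genes. With the same total the split was 110 and 104 (median -0.10), where 14.7% of all genes rose and 48.6% fell (median -0.60). Slc8a1, a sodium-calcium exchanger, had the largest fall of the family, 322, 274 and 263 in Low and 2.11, 3.08 and 0 in Negative (log2 difference -6.94 ± 0.50, adjusted p = 2.07e-06). Its 3 Negative libraries were at or near the floor of 3 counts. Of 42 ABC transporters 22 rose (52.4%) and 9 fell (21.4%), or 14 and 11 with the same total. Abcc8, the sulphonylurea receptor of hormone-secreting cells, fell by 5.69 ± 0.34 on the log2 scale. Slc8a1 was at -6.33 without Negative C.

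Transcription factors of the intestine moved in both directions. Of 30 listed factors 19 rose and 7 fell (median 0.56). With the same total 8 rose and 7 fell, and 11 rose under quantile scaling. Maf, a basic leucine zipper factor, measured 458, 1118 and 383 in Low and 9511, 15489 and 12037 in Negative (log2 difference 4.38 ± 0.51, adjusted p = 2.3e-05, 20.8-fold). Hnf4g, a nuclear receptor of the enterocyte programme, measured 919, 1475 and 956 in Low and 11028, 12879 and 12596 in Negative (log2 difference 3.48 ± 0.27, adjusted p = 3.39e-06, 11.1-fold). Neither gene overlapped between the gates, and the 3 Negative libraries of Hnf4g lay close together. Creb3l3, a membrane-bound factor that acts on lipid genes, rose by 4.77 ± 0.59.

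Hnf4a, the paralogue of Hnf4g, was not called. It measured 7657, 8671 and 8537 in Low and 9656, 10820 and 9520 in Negative (0.27 ± 0.12, adjusted p = 0.077), so the Negative libraries lay above the Low libraries by a small margin. The fit with the replicate letter as a block and DESeq2 called it higher, and quantile scaling called it lower. Cdx2, which sets intestinal identity, measured 1473, 1684 and 1529 in Low and 1919, 2677 and 1879 in Negative (0.45 ± 0.16, adjusted p = 0.0292), a difference below the shift between the scalings that 5 alternatives did not call. The related Cdx1 measured 1467, 1491 and 1523 in Low and 987, 917 and 911 in Negative (log2 difference -0.67 ± 0.17, adjusted p = 0.00436), with all Negative libraries lower. Gata4, a factor of the proximal small intestine, rose by 1.31 ± 0.17. The forkhead factors Foxa2 (-3.19 ± 0.48), Foxa1 (-2.55 ± 0.31) and Foxa3 (-2.34 ± 0.35) fell, and so did the Ets factor Ehf (-3.04 ± 0.43). Foxa2 was at -2.52 without Negative B.

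Nuclear receptors, the ligand-bound factors, had 20 of 40 members higher and 7 lower (median 0.57), or 14 and 9 with the same total. Esrra, which acts on mitochondrial genes, rose by 2.14 ± 0.24, the retinoid X receptor Rxra by 1.81 ± 0.21 and the mineralocorticoid receptor Nr3c2 by 1.88 ± 0.27. Nr4a1, an inducible orphan receptor, fell by 3.60 ± 0.65 on the log2 scale. Of the 10 Sox genes 2 rose, Sox6 (0.80, call lost in 1) and Sox13 (0.71, call lost in 1), and 4 fell, Sox4 (-4.36), Sox9 (-3.50), Sox12 (-2.33) and Sox5 (-1.66), where Sox9 is the sort gene and Sox4 a factor of crypt progenitors, and with the same total 0 rose and 5 fell. Of 19 Klf and Sp factors 5 rose and 8 fell, or 0 and 10 with the same total. The share that rose was 26.3%, near the 26.8% of all genes, and the share that fell was 42.1%, against 30.3%. Those that rose were Klf15 (1.75, call lost in 5), Klf4 (1.16, call lost in 2), Klf6 (0.86, call lost in 5), Klf5 (0.56, call lost in 2) and Klf3 (0.45, call lost in 5). Of 19 Hox genes, most near the floor, 0 rose and 5 fell, and with the same total 8 fell. The 5 were 26.3% of the list, below the 30.3% of all genes that fell. They were Hoxb8 (-4.08), Hoxa4 (-2.79), Hoxa3 (-2.37), Hoxb9 (-1.54, call lost in 1) and Hoxa2 (-1.53, call lost in 9). Nr4a1 was at -4.25 without Negative C.

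Cell cycle genes fell as a body. All 37 mitosis genes fell (median -2.49), as did 34 of 35 genes of S phase (median -2.25) and 28 of 28 genes of DNA repair (median -2.25), against 30.3% of all genes. Mki67, a nuclear protein of dividing cells, measured 20750, 21201 and 18959 in Low and 6131, 1572 and 3679 in Negative (log2 difference -2.63 ± 0.40, adjusted p = 0.000156, 6.17-fold). Mcm2, a subunit of the replicative helicase, measured 1788, 1314 and 1518 in Low and 359, 78.4 and 138 in Negative (log2 difference -3.27 ± 0.47, adjusted p = 0.000104). In both genes Negative A held the most transcripts of the Negative libraries and Negative B the fewest, by more than 3-fold. Summed mitosis genes measured 71667, 70506 and 64976 in Low and 19919, 5736 and 12506 in Negative, and all 37 members fell in each of the 6 fits that left out 1 library. Gmnn, an inhibitor of replication licensing, was the S phase member not called (-0.14, adjusted p = 0.617). Mcm2 was at -3.86 without Negative A.

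The promoters of 4 mitosis genes are shown because many members of this list carry the same pair of motifs. They are again the 120 bases before the start from RefSeq on GRCm38.p6, with capitals marking the cell cycle homology region TTTGAA and the NF-Y motif CCAAT on either strand. Espl1, the separase that opens sister chromatids, lies at chr15:102296173-102296292 on the plus strand, Top2a, the topoisomerase that untangles them, at chr11:99024190-99024309 on the minus strand, the spindle motor Kif11 at chr19:37376262-37376381 on the plus strand and Ect2, which sets the plane of cell division, at chr3:27153879-27153998 on the minus strand.
Espl1: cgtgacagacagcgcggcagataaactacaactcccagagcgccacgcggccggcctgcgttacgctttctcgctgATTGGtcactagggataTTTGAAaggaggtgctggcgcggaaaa
Top2a: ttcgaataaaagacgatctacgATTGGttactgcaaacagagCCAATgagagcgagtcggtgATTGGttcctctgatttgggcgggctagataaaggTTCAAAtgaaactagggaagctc
Kif11: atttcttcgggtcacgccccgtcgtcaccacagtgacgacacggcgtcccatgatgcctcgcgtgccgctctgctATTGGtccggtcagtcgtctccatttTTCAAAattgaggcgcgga
Ect2: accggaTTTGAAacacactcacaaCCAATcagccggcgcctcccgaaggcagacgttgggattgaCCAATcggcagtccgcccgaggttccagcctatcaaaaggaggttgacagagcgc
Espl1 (-3.08 ± 0.49), Top2a (-3.04 ± 0.43), Kif11 (-2.89 ± 0.43) and Ect2 (-2.87 ± 0.49) all fell. Among 30 mitosis genes with an entry, 73.3% held TTTGAA and 73.3% held CCAAT, against 12.6% and 38.8% of the protein-coding genes tested, and 63.3% held both against 5.38%. In the shorter window of 150 bases the TTTGAA share was 33.3%, against 5.56%. The median GC content was 59.0% in the mitosis promoters and 60.0% in all. S phase genes had an entry for 27 of 35 members (77.1%), too few for the same description. Of 57 promoters of replication-dependent histones, which are also made in S phase, 84.2% held CCAAT and 57.9% the TATA box. The shares in the protein-coding genes tested were 38.8% and 8.23%. The histone promoters had a lower median GC content, 45.3% against 60.0%, and its part in these shares was not tested. Espl1 was at -2.47 without Negative B, and Ect2 was at -2.23 without Negative B.

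**Figure D4:**
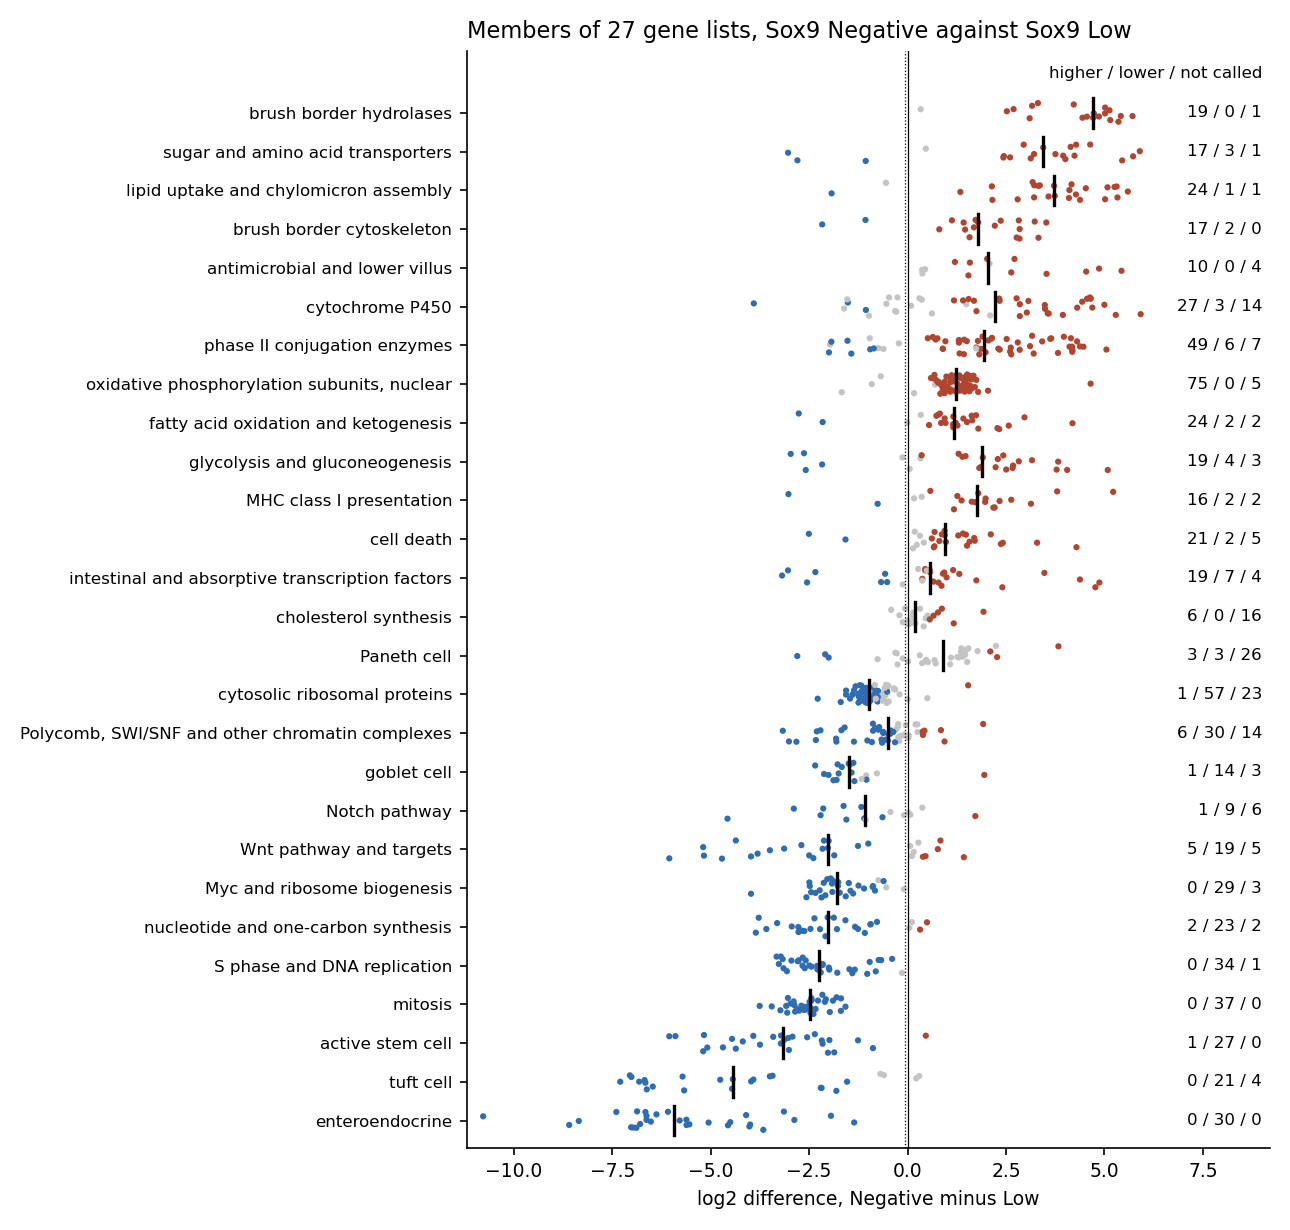
Log2 difference of Negative minus Low (horizontal axis) for the members tested of 27 gene lists (rows). Red points rose, blue points fell, grey points were not called, black bars are list medians, the dotted line is the median of all genes, and numbers at the right give members higher, lower and not called. Absorptive lists lie to the right and enteroendocrine, tuft, stem cell and mitosis lists to the left.

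Of 65 replication-dependent histone genes 58 fell and 0 rose (median -2.37). Their reads can be split between near-identical copies, and most of these transcripts lack a poly(A) tail, which total RNA libraries do not require. Hist1h1c, a linker histone, fell by 1.54 ± 0.27 on the log2 scale. Among G1 regulators 14 of 23 fell and 4 rose, the latter being Cdkn2b (3.57), Rb1 (1.32), Cdkn1a (1.24) and Rbl2 (0.52, call lost in 2). Ccnd1 (-2.39 ± 0.50) and Cdk6 (-3.22 ± 0.35), a cyclin and its kinase, fell. Cdkn2b, which inhibits those kinases, measured 105, 249 and 63.4 in Low and 1411, 1755 and 1151 in Negative (log2 difference 3.57 ± 0.46, adjusted p = 4.55e-05, 11.9-fold), with all Negative libraries higher. Ccnd1 was at -1.76 without Negative B.

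The machinery of ribosome production fell with the cell cycle. Of 32 genes of Myc and ribosome biogenesis 29 fell and 0 rose (median -1.79). Myc, a factor that drives cell growth, measured 1126, 1082 and 1613 in Low and 137, 29.2 and 119.8 in Negative (log2 difference -3.98 ± 0.58, adjusted p = 0.000105, 15.7-fold), and Negative B was again the lowest library. The nucleolar proteins Ncl (-1.91 ± 0.28) and Npm1 (-1.95 ± 0.33) fell. Cytosolic ribosomal proteins had 57 of 81 members lower and 1 higher (median -0.99), and the count that fell was 36 without Low C and 35 without Negative B. Rpl3, of the large subunit, measured 12274, 12064 and 13971 in Low and 5444, 3243 and 5611 in Negative (log2 difference -1.46 ± 0.28, adjusted p = 0.000828), with no overlap. The member that rose was Rps4l, a copy of Rps4x (1.54 ± 0.21). Among mitochondrial ribosomal proteins 20 of 80 rose and 1 fell (median 0.12), 3 and 29 with the same total, and 6 fell with the replicate letter as a block. The share of this list that rose was near the 26.8% of all genes, and the share that fell was below the 30.3% of all genes. With the same total, its shares were below the 14.7% of all genes that rose and the 48.6% that fell. Of 68 splicing factors 37 fell and 1 rose, the latter being Snrpn (1.87 ± 0.32). Proteasome subunits had 12 of 38 higher (31.6%, against 26.8% of all genes) and 0 lower, or 3 and 12 with the same total. The largest rise was that of the immunoproteasome subunit Psmb8 (1.98 ± 0.28). Myc was at -3.28 without Negative B.

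Stem cell genes of the crypt base were among the larger falls, which is also a check of the gate labels. Of 28 markers of active stem cells 27 fell and 1 rose (median -3.17). Lgr5, the receptor that defines these cells, measured 2150.3, 1923 and 3354 in Low and 92.9, 49.2 and 59.3 in Negative (log2 difference -5.19 ± 0.44, adjusted p = 4.95e-06, 36.5-fold). Olfm4, a secreted protein of the crypt base, measured 70067, 52059 and 60403 in Low and 3733, 218 and 1271 in Negative (log2 difference -5.90 ± 0.86, adjusted p = 0.000106, 59.6-fold). Ascl2, a factor that keeps the stem cell state, measured 163, 223 and 275 in Low and 12.7, 1.54 and 0 in Negative (log2 difference -6.05 ± 0.78, adjusted p = 4.81e-05). Every Low library was far above every Negative library in all 3 genes, and Negative A held the most Olfm4 and Ascl2 of its gate. Summed over the list, the markers measured 211940, 173840 and 200450 in Low and 30193, 20694 and 23600 in Negative. The sum was thus reduced but not absent in Negative. Which cells held the transcripts left in Negative was not tested. The member that rose was the vitamin D receptor Vdr, by 0.46 ± 0.15, and 4 of 20 alternatives did not call it. Of 11 genes linked to reserve or regenerating stem cells 7 fell and 2 rose, or 8 and 1 with the same total. Among them Lrig1, an inhibitor of ErbB receptors, fell by 2.22 ± 0.21 on the log2 scale and Bmi1, a Polycomb protein, by 1.19 ± 0.19, while the ErbB ligand Areg rose by 2.16 ± 0.62 and the keratin Krt19 by 1.04 ± 0.20, a call lost with the same total and under quantile scaling. Olfm4 was at -4.79 without Negative B and -6.84 without Negative A, and Ascl2 was at -5.20 without Negative C and -7.09 without Negative A. Areg was at 2.80 without Negative A.

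Most members of the Wnt list fell. Of 29 listed genes 19 fell and 5 rose (median -2.02), or 20 and 1 with the same total. Axin2, a feedback inhibitor, fell by 2.16 ± 0.25 on the log2 scale, the adhesion receptor Cd44 by 5.17 ± 0.60 and the factor Prox1 by 4.71 ± 0.32. Beta-catenin (Ctnnb1, 0.45 ± 0.13), its partner Tcf7l2 (0.77 ± 0.17), the scaffold Apc (0.39 ± 0.10) and the receptor Fzd5 (0.83 ± 0.15) rose with the deposited scaling, and all 4 calls were lost with the same total and under quantile scaling. The other member that rose was Tle4, a co-repressor of the pathway (1.43 ± 0.19). Cd44 was at -4.30 without Negative B and -5.79 without Negative A.

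In the Notch pathway 9 of 16 members fell and 1 rose (median -1.08). The receptor Notch1 measured 3050, 2446 and 3343 in Low and 508, 275 and 436 in Negative (log2 difference -2.89 ± 0.35, adjusted p = 3.06e-05), the modifying enzyme Lfng fell by 4.57 ± 0.86 on the log2 scale, and the target Hes1 fell by 1.55 ± 0.32. The ligand Dll1 was at 1110.4 ± 233 in Low and 1155 ± 143 in Negative (mean ± SD, n = 3, adjusted p = 0.76), and Numb, an inhibitor of Notch, was the member that rose (1.72 ± 0.18). The BMP list, a pathway of the villus, had 8 of 22 members higher and 4 lower, or 4 and 10 with the same total. Its members that fell were Tgfb1 (-1.14, call lost in 1), Tgfbr2 (-1.01), Tgfbr1 (-0.98) and Smad5 (-0.54), and its inhibitory target Smad7 rose by 2.30 ± 0.23. ErbB and Eph genes were split, 10 of 22 higher and 9 lower. Of these, the receptors Ephb3 (-3.14 ± 0.30) and Epha4 (-2.37 ± 0.18) fell, while the ligand Efnb2, which marks the villus side of the gradient, rose by 2.66 ± 0.23 and Erbb3 by 1.32 ± 0.20. Hippo genes had 3 of 15 higher and 7 lower, or 1 and 11 with the same total. The target Cyr61 fell by 3.38 ± 0.38 and the members that rose were Lats2 (2.49), Amotl2 (1.05, call lost in 1) and Nf2 (0.31, call lost in 11), of which Lats2 and Nf2 restrain the pathway's effector. Lfng was at -3.21 without Negative B and -5.45 without Negative A.

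Genes of enteroendocrine cells, which secrete gut hormones, and of tuft cells held 9 of the 15 largest falls. By the rule for named genes the 15 were Nts, Sh2d7, Gcg, Gip, Chgb, Pygl, Rgs13, Kctd12, Scgn, Amigo2, Sh2d6, Cpe, Plcb2, Lrmp and Scg2, with log2 differences from -10.78 to -6.97, and 6 of them are in the enteroendocrine list and 3 in the tuft cell list. All 30 enteroendocrine genes fell (median -5.94), and their sum measured 120960, 105480 and 74960 in Low and 3017, 949 and 1914 in Negative. Nts, the hormone neurotensin, measured 7343, 2101 and 6367 in Low and 0, 3.08 and 3.42 in Negative (log2 difference -10.78 ± 1.28, adjusted p = 2.78e-05). As the Negative libraries together held 5 reads of Nts against 17229 in Low, the ratio of depth-adjusted reads was 2546 with a 95% counting interval of 1091 to 7843. Gip, an incretin hormone, measured 20227, 24385 and 16713 in Low and 461, 4.61 and 90.1 in Negative (log2 difference -8.35 ± 1.11, adjusted p = 5.83e-05), and Negative A held most of the reads left in that gate. The ratio of its summed reads, which weights that library most, was 97.0, and its 95% interval of 89.0 to 106 covers counting error and not the spread between libraries. Chga, a granin of secretory granules, measured 15475, 11903 and 7349 in Low and 329, 119.95 and 199.7 in Negative (log2 difference -5.79 ± 0.39, adjusted p = 1.56e-06). All 3 Low libraries exceeded every Negative library in each of these genes. All 30 members also fell in each of the 6 fits that left out 1 library. The serotonin-making enzyme Tph1 fell by 4.02 ± 0.26 on the log2 scale, and Neurog3, the factor that commits cells to this lineage, fell by 3.66 ± 1.11. Nts was at -10.09 without Negative A, and Gip was at -6.62 without Negative B and -9.80 without Negative A. Neurog3 was at -2.04 without Negative B and -4.74 without Negative A.

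Of 25 tuft cell genes, which mark a rare chemosensory cell, 21 fell and 0 rose (median -4.44). Dclk1, a kinase used as a marker of these cells, measured 6470.5, 3802 and 4529.6 in Low and 33.8, 32.3 and 66.2 in Negative (log2 difference -6.82 ± 0.41, adjusted p = 6.87e-07, 113-fold). The channel Trpm5 fell by 6.62 ± 0.38 on the log2 scale and Pou2f3, the factor that makes the lineage, by 5.72 ± 0.31. Sh2d7, an adaptor protein outside the list, measured 2122, 1189.5 and 1327 in Low and 2.11, 1.54 and 4.56 in Negative, near the floor in Negative. Amigo2, an adhesion protein outside both lists, had 953 reads in Low and 4 in Negative, a ratio of 176 (95% interval 68.5 to 647). The members not called were Il25, Ltc4s, Tas1r3 and Chat, with log2 differences of -0.69, -0.60, 0.22 and 0.30. The summed tuft list, which holds the sort gene Sox9, measured 51980, 37677 and 40857 in Low and 5228, 3863 and 5760.2 in Negative. Genes such as Cd24a and Sox9 are known in these rare cells as well as in the crypt base, and the part of the rare cells in their falls was not tested.

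**Figure D5:**
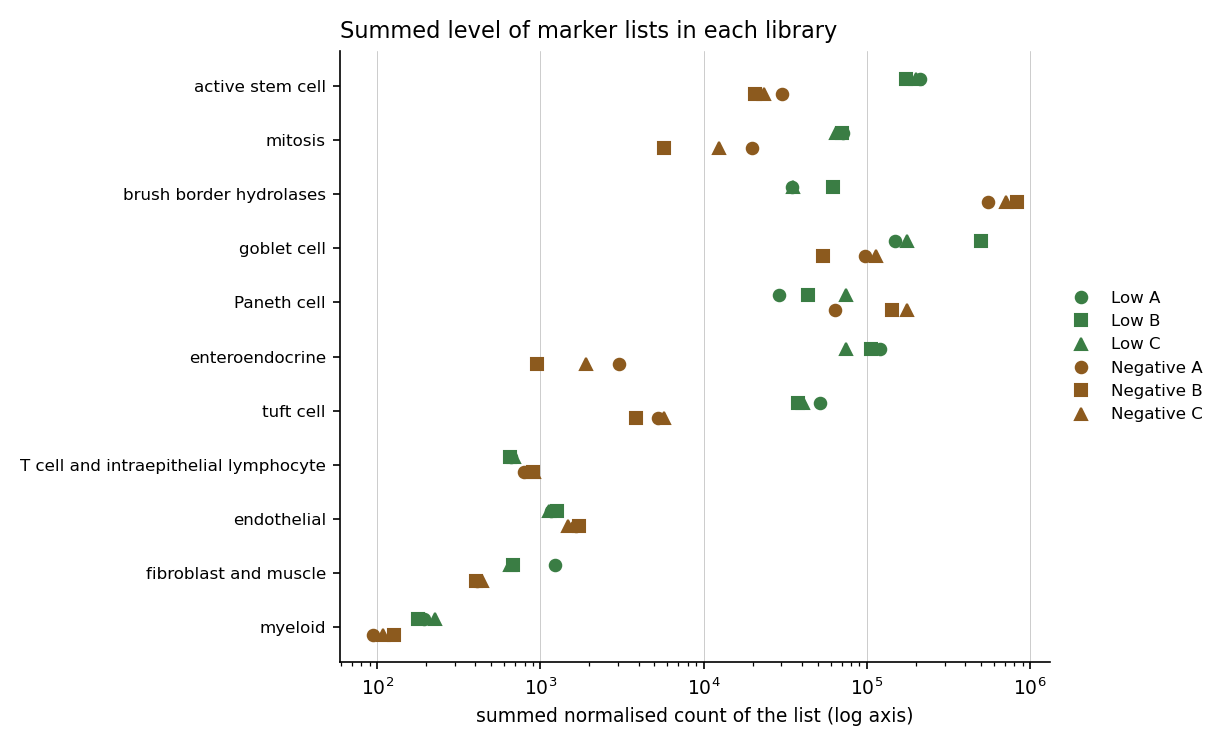
Summed normalised counts (horizontal axis, log scale) of 11 marker lists (rows) in each of the 6 libraries, Low in green and Negative in brown, with circles for replicate A, squares for B and triangles for C. Active stem cell, enteroendocrine and tuft sums are lower in every Negative library, hydrolase sums are higher in every one, goblet sums are lower, and Paneth sums overlap between the gates.

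Goblet and Paneth genes mark the other secretory lineages. Of 18 goblet cell genes 14 fell and 1 rose (median -1.48), the latter being B3gnt6 (1.95). Muc2, the gel-forming mucin, measured 52007, 144630 and 50863 in Low and 23836, 14602 and 28845 in Negative (log2 difference -1.75 ± 0.38, adjusted p = 0.00186, 3.37-fold). Low B held nearly 3-fold more Muc2 than Low A or Low C, and the same library stood out in the summed list (149610, 498580 and 175940 in Low and 96879, 53561 and 113650 in Negative). The count that fell was 9 without Low B and 9 without Negative B. Fcgbp, a mucus protein, fell by 1.35 on the log2 scale (adjusted p = 0.0256), a call lost without Low B or Negative B and in the fit of the 6 libraries alone. Atoh1, the factor that opens the secretory fate, fell by 1.67 ± 0.29. Of 15 secretory fate factors 10 fell and 1 rose. The factor that rose was Xbp1, which supports secretory capacity (0.69 ± 0.16), and its call was lost with the same total and under quantile scaling.

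Of 32 Paneth cell genes 3 rose and 3 fell, although the list's median was 0.90. With the same total 1 rose and 4 fell, and the count that rose was 12 in the fit of the 6 libraries alone, 6 with the replicate letter as a block, 7 by edgeR and 1 to 7 when a library was left out. Lyz1, the lysozyme of these cells, measured 5296, 7919.8 and 14304 in Low and 13453, 28211 and 35685 in Negative (1.499 ± 0.754, adjusted p = 0.109). Low C lay above Negative A, while within each letter the Negative library was the higher, and no change was called with or without the letter as a block (adjusted p = 0.0746 with it, limma). The summed list measured 29109, 43298 and 74225 in Low and 64165, 141960 and 175750 in Negative, so Low C lay above Negative A and each Negative library above the Low library of its letter. The members that rose were Defa-ps7 (3.83), Defa30 (2.27, call lost in 8) and Defa31 (2.10, call lost in 6), and those that fell were Kit (-2.80), Mptx1 (-2.09, call lost in 12) and Wnt3 (-2.005), of which Kit is a receptor tyrosine kinase and Wnt3 a Wnt ligand. Defa genes are near-identical and their reads cannot be placed with certainty.

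Enzymes of DNA methylation and chromatin complexes were lower in Negative. Of 14 genes of DNA methylation 8 fell and 2 rose, or 12 and 0 with the same total. Those that rose were Tet3 (0.77, call lost in 2) and Tet2 (0.75, call lost in 1). Dnmt1, the maintenance methyltransferase, measured 5387, 4688 and 3859 in Low and 1219.7, 472 and 836 in Negative (log2 difference -2.55 ± 0.32, adjusted p = 4e-05), and its recruiter Uhrf1 fell by 3.33 ± 0.61 on the log2 scale. Tet1, which oxidises methylated cytosine, fell by 2.89 ± 0.28. Of 50 chromatin genes 30 fell and 6 rose (median -0.49), or 43 and 1 with the same total. The Polycomb methyltransferase Ezh2 fell by 1.02 ± 0.17, and the remodeller Chd3 was the member with the largest rise (1.92 ± 0.31). Of 18 histone variants and chaperones 12 fell and 1 rose, with the linker histone H1fx lowest (-5.21 ± 0.53) and Daxx (0.47, call lost in 6) the one that rose. Uhrf1 was at -2.56 without Negative B and -3.98 without Negative A.

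Antigen presentation by MHC class I rose. Of 20 members 16 rose and 2 fell (median 1.76). B2m, the light chain of class I molecules, measured 1512, 1879 and 1877 in Low and 6878, 11140 and 6946 in Negative (log2 difference 2.21 ± 0.26, adjusted p = 2.31e-05), with no overlap. The non-classical heavy chain H2-Q1 rose by 5.22 ± 0.76, though near-identical H2-Q genes can share reads, and Cd1d1, which presents lipids, fell by 3.03 ± 0.38 on the log2 scale, as did H2-M3 (-0.76, call lost in 10). For class II 3 of 10 members rose and 0 fell. The share that rose, 30.0%, was near the 26.8% of all genes, and 5 rose with the replicate letter as a block. The 3 were Ctss (2.40), Ifi30 (1.36) and H2-DMa (0.92, call lost in 7). Cd74, the invariant chain, was at 2515 ± 1283 in Low and 2634 ± 304 in Negative (mean ± SD, n = 3, adjusted p = 0.742). Of 29 interferon-stimulated genes 19 rose and 1 fell (median 1.29), or 14 and 3 with the same total, with Ifit3, an antiviral protein, at 4.12 ± 0.58. The member that fell was Iigp1 (-1.82, call lost in 5). H2-Q1 was at 5.81 without Low B.

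Most genes of the cell death list rose. Of 28 members 21 rose and 2 fell (median 0.94), or 12 and 3 with the same total. The death receptor Fas rose by 4.29 ± 0.48 and the pore-forming Gsdmd by 3.29 ± 0.44. The survival gene Bcl2 fell by 2.51 ± 0.24 on the log2 scale, and so did Birc5, which also acts in mitosis (-1.58 ± 0.33). Of 22 genes of protein folding in the endoplasmic reticulum 10 rose and 1 fell, or 4 and 2 with the same total, and the member that fell was Ern2 (-1.96). Immediate early genes, which respond within minutes to stimuli including tissue handling, had 10 of 20 members lower and 2 higher, with 5 higher under the replicate block and 14 lower and 0 higher with the same total. The 2 that rose were Zfp36 (0.92, call lost in 2) and Fosl2 (0.85, call lost in 2). Egr1 fell by 1.08 ± 0.25 on the log2 scale and Fos was not called (0.37, adjusted p = 0.241).

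Structural genes of the epithelium changed in part. Of 15 keratin and desmosome genes 9 rose and 5 fell, which were Krt23 (-3.29), Pkp1 (-2.38), Krt18 (-2.20), Krt7 (-1.96) and Ppl (-0.68), or 2 and 6 with the same total. Krt18 pairs with Krt8 in filaments of simple epithelia, and Krt8 rose by 0.88 ± 0.15, a call lost with the same total and under quantile scaling. Junction genes had 14 of 28 higher and 4 lower, the latter being Cgnl1 (-2.56), Cldn6 (-2.39), Cldn2 (-2.03) and Cldn4 (-1.42), or 8 and 11 with the same total. The pore-forming claudins went opposite ways: Cldn2 fell by 2.03 ± 0.36 and Cldn15 rose by 1.70 ± 0.20. Of 17 galectins, membrane mucins and glycocalyx genes 11 rose and 4 fell, which were Fut2 (-3.85), Muc3a (-2.32), Muc4 (-0.91) and Galnt3 (-0.68), or 9 and 6 with the same total. The sialyltransferase St3gal4 rose by 4.39 ± 0.45, and Fut2 is a fucosyltransferase.

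Marker lists of cells other than epithelium summed to at most 1727 in any of the 6 libraries, a level reached by the endothelial list. The T cell list, which intraepithelial lymphocytes would carry, measured 658, 654 and 688 in Low and 792, 901 and 919 in Negative, higher in every Negative library. Of its 11 members tested 1 rose and 0 fell, or 0 and 3 with the same total. That member was the T cell receptor chain Cd3g, whose call was lost in 9 of 20 alternatives. Trac, the constant region of the T cell receptor, did not pass the filter, with values of at most 12.3 in the 6 libraries. Myeloid genes measured 193, 179 and 227 in Low and 94.0, 126 and 108 in Negative. Of 6 tested 2 fell (33.3%, near the 30.3% of all genes), Cd14 (-2.40) and Cd68 (-1.16, call lost in 1). S100a8 and S100a9 were listed at 0 in all 6 libraries. Rps12, a ribosomal protein gene that every cell uses, is listed at 0 as well, so a listed 0 need not mean absence. Endothelial genes measured 1169, 1271 and 1129 in Low and 1663, 1727 and 1475 in Negative. Of 5 tested 3 rose, Lyve1 (1.26, call lost in 1), Pecam1 (0.43, call lost in 6) and Vwf (0.40, call lost in 9). With the same total 0 rose and 1 fell, and 1 rose when Low A, Low C, Negative A or Negative B was left out. The endothelial cadherin Cdh5 stayed at or below 7.39. Fibroblast and muscle genes measured 1231, 681 and 647 in Low and 411, 401 and 438 in Negative, most of it Vim in Low, an intermediate filament protein that measured 1029, 424 and 421 in Low and 15.8, 0 and 19.4 in Negative (log2 difference -6.35 ± 1.46, adjusted p = 0.00264), while Dcn and Lum did not exceed 5.28. Of 6 neuronal and glial genes 4 fell, Uchl1 (-2.90), Tubb3 (-2.87), Ret (-2.66) and Elavl4 (-1.71, call lost in 6). The 1 red cell gene tested, Alas2, fell in a call lost in 6 alternatives. The summed red cell list, however, measured 47.9, 36.0 and 31.7 in Low and 73.9, 7.69 and 74.2 in Negative. Its globin member Hba-a2, below the filter, measured 7.63, 0 and 1.58 in Low and 27.5, 0 and 45.6 in Negative. The 1 B cell gene tested, Ms4a1, was not called. The part of such cells in the results above was not tested. Vim was at -4.94 without Negative B and -7.12 without Negative C.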

How the data were processed

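RNA of sorted intestinal epithelial cells was measured in 12 libraries, grouped by their labels into 4 populations of 3. The authors deposited 1 table of normalised counts per gene, a signal in which each library's read counts are divided by a size factor. Which aligner, genome build, annotation and strand setting they used is not given in the sources used here. All values are whole multiples of 1 step per library (100% within a tolerance of 0.01), and whole reads recovered from these steps were used for depth, for edgeR 4.0.16 and for DESeq2 1.42.0. No row lacked a gene name.

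Genes reaching 10 in 3 or more libraries were tested with limma 3.58.1 (trend, R 4.3.3) on log2(value + 1), in 1 fit of all 12 libraries that shares 1 estimate of the spread, for Negative minus Low. The p-values were adjusted by Benjamini-Hochberg over all 16577 genes, and calls have an adjusted p below 0.05. On this scale the change of a low gene is understated. The rule for named genes takes the 15 largest changes in each direction among called genes whose 6 values average 100 or more and whose gates do not overlap, leaving out predicted genes, clone names and small or ribosomal RNAs. Sox9 is always given, and other members of the lists were named with their values known. The comparison, its members and the 67 gene lists were chosen with earlier results of these data known. In simulated counts for this comparison 16176 genes passed the filter, few of them were changed, and all had the same fixed spread between libraries. There 6% of 1.5-fold, 48% of 2-fold and 100% of 4-fold changes were recovered, and 0.0501% of the unchanged genes were called. As 57.2% of genes were called in the real data, these shares need not hold there.

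Same-letter Low and Negative libraries deviated together (correlations over genes 0.117, 0.107 and 0.105, against -0.0712 to -0.0458 for different letters). Deviations were taken from the mean of each gate, so positive same-letter values bring negative different-letter values with them. The labels do not say what a letter stands for. The main fit holds no block for the letter, so its standard errors and adjusted p leave such a pairing out, and the block is an alternative. Alternatives were a replicate block, pseudocounts of 0.5 and 5, no filter, a mean of at least 50, 3 other scalings, other sets of libraries, robust and weighted fits, edgeR, DESeq2, a 2-fold minimum and leaving out each library. Promoters are RefSeq windows of 300 bases on GRCm38.p6, matched by symbol (219 through a synonym), with an entry for 11804 of 14742 protein-coding genes tested. Counting intervals (95%) and the floor of 3 counts cover counting error only, since no molecular identifiers are recorded. Some members of the lists are counted but not reported here by name.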

Additional observations from a re-analysis of the deposited data

How the results depend on the processing

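Scaling to the same total lowered the number of genes higher in Negative from 4446 to 2441 and raised the number lower from 5028 to 8050, and the 2-fold minimum left 2550 higher. The median over all genes moves by -0.55 under that scaling by its construction. Leaving out 1 library gave 3868 to 4226 genes higher and 4423 to 4753 lower. With the replicate block 4701 genes were higher and 5305 lower, and the block changed no call of Sox9 or of the 30 named genes. Across 20 settings those 30 genes kept direction and call in 600 of 600 combinations of gene and setting. They had been picked from these data as the largest called changes without overlap, so this result was nearly fixed by their choice and is no separate support. Of 1919 list members tested, 1380 were called, 1054 of them under every alternative, and 59 had the other sign under at least 1 alternative. The TTTGAA share in mitosis promoters was 33.3% in the 150-base window, and the HNF4 share was 0.891% in genes that rose at any fold; the cause was not tested. Depth limits genes near the floor, such as Nts in Negative. The simulated counts, in which few genes were changed, recovered few 1.5-fold changes.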

Other observations

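Some genes that changed together lie close to each other in the genome. Neighbours were counted among the genes tested only, so untested genes that lie between members of a run were skipped. Where such neighbours were all called in 1 direction, a run of 12 genes that includes carboxylesterases from Ces2a to Ces2h rose with a median of 3.21. A run of 8 that holds the tested Cyp2c genes from Cyp2c55 to Cyp2c68 rose with a median of 3.31. A run of 6 with the Reg3 genes rose by 3.12 and a run of 6 with glutathione transferases of the Gstm family by 2.42. In the other direction, the longest run of all held 22 protocadherin gamma genes, which share exons, and fell with a median of -2.58, and 2 runs of 10 genes also fell. A run of 9 genes from Bicd2 to Iars, which includes the small matrix proteoglycan genes Ecm2, Aspn, Omd and Ogn, also fell with a median of -1.74, and the lowest change in it was 0.623 in size. Carboxylesterase, Cyp2c and Gstm genes are close copies, and how the counting placed reads that fit several of them is not stated. How many such runs another order of genes would give was not tested.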
